A study of Mus musculus with 20 samples.

Results

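The genes described here are 35 genes of the contractile apparatus and the actin cytoskeleton, taken by symbol from a list given for this work and found among the 24848 genes of each deposited table. They were divided by textbook knowledge into 10 smooth muscle specific members (Acta2, Actg2, Cnn1, Tagln, Myh11, Lmod1, Smtn, Des, Myocd and Synpo2) and 25 widely expressed members. The name of the first class does not hold strictly for each gene, since Des is also among the stellate cell markers used below. Of the 25, 7 are found in many cells but enriched in smooth muscle (Mylk, Myl9, Tpm1, Tpm2, Cald1, Csrp1 and Sorbs2), and they are also counted on their own. All 35 passed the filter on low counts.

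The RNA came from liver cells of C57BL/6 mice, with 4 libraries in each of 5 groups, and no genetic change or added agent is named for any group. PMSCs are portal mesenchymal stem cells and HSCs are hepatic stellate cells, the vitamin A storing pericytes of the liver sinusoid. PMSC-MFs-3d and PMSC-MFs-7d are myofibroblasts grown from PMSCs in culture for 3 and 7 days by their titles, and HSC-MFs-7d are myofibroblasts grown from HSCs. The titles give 7 days for the last group where the text on the series gives 3 days, and the titles are followed here, so time and cell origin cannot be told apart with certainty in comparisons with HSC-MFs-7d. How the cells were isolated, sex, age and the number of mice are not given in the sources used here. Whether the 4 libraries of each group stand for different mice or dishes is not labelled, so the p-values measure the spread between these libraries, which may be technical.

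Smooth muscle cells and myofibroblasts contract by sliding actin filaments along myosin. Calcium activates myosin light chain kinase, which phosphorylates the regulatory light chain, while calponin, caldesmon, transgelin and tropomyosin lie along the actin filament. Dense bodies and focal adhesions, built with alpha-actinin, vinculin, zyxin and filamin, anchor the filaments, and desmin, vimentin and nestin form intermediate filaments. Many of these genes are transcribed through serum response factor, Srf, which binds an A/T-rich element called the CArG box together with the coactivators myocardin and Mkl1. Myofibroblasts, the collagen-producing cells of the scarred liver, are recognised by alpha smooth muscle actin, the product of Acta2.

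The promoters of members are shown first because Srf is itself a member and its element can be read in the letters. Listed promoter start sites on GRCm38.p6 (mm10) were found for 31 of the 35 genes, in 38 windows of 250 bases before the start. Tagln, Myocd, Actg2 and Myh11 had no entry. A listed start need not be the outer end of the gene. The stretches of Acta2, Srf and Myl6 lie inside the gene spans, which end at 34255585, 46558267 and 128493886. Their distances are therefore counted from a start within the gene. In the stretches that follow, read 5′ to 3′ on the gene's own strand, capitals mark exact CArG boxes in Srf, Cnn2, Myl6 and Vcl and the first box of Myl9. In Acta2, and in the second box of Myl9, capitals mark a near match with 1 core letter that is G or C.
Acta2 (chr19:34255374-34255482, minus strand): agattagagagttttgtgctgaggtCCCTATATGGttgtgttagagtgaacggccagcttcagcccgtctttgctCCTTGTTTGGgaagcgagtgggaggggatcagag
Srf (chr17:46556190-46556269, minus strand): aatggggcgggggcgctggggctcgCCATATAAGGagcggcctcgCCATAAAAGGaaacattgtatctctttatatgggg
Cnn2 (chr10:79988519-79988578, plus strand): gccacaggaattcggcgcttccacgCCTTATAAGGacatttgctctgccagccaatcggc
Myl6 (chr10:128493025-128493084, minus strand): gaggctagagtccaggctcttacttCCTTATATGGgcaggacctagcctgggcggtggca
Vcl (chr14:20929148-20929205, plus strand): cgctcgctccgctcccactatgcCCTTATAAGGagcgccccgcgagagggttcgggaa
Myl9 (chr2:156775278-156775399, plus strand): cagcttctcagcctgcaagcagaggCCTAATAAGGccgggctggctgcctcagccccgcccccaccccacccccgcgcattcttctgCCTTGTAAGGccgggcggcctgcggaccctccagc

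The CArG box was searched on both strands as CCNNNNNNGG with all 6 core letters A or T. An exact box lay in 5 of the 38 member windows (13.2%) and in 482 of all 32851 windows of the same length (1.47%). Srf held 2, starting 82 and 62 bases before its listed start site, Cnn2 held 1 at 56 bases, Myl6 at 50, Vcl at 227 and Myl9 at 161. No exact box was found in the windows of the 6 smooth muscle specific members with an entry. With 1 core letter allowed to be G or C, a form added after the exact matches had been seen, 8 member windows (21.1%) held a box against 8.59% of all windows, and Acta2 then held 2, at 84 and 34 bases, and Myl9 a second, at 99 bases. The letters CATTCC on either strand, the core of the element bound by Tead factors, lay in 11 member windows (28.9%) and in 12.6% of all windows, among them those of Acta2, Lmod1 and Smtn. These matches describe letters in a window, not binding.

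The labels were compared with marker genes before the members were read. Summed TPM (a level relative to the library total that takes gene length into account) over 16 stellate cell markers, one of which is Des, was 20347 to 31477 in HSCs and 1747 to 2239 in PMSCs. Over 14 portal fibroblast markers it was 19353 to 22320 TPM in PMSCs and 605.7 to 879.8 TPM in HSCs. Markers of other liver cells were also counted in the HSC libraries: 15 hepatocyte markers summed to 5706 to 26319 TPM in HSCs, 585 to 1188 in PMSCs and at most 129 in cultured cells, and 13 macrophage markers to 4582 to 15512 TPM in HSCs and at most 134 elsewhere. The 13 endothelial markers summed to 5855 to 7520 TPM in HSCs, 365 to 547 in PMSCs and at most 579 in cultured cells. Vsig4 and Marco of the macrophage list were at 0 in PMSCs, and the part of these cells in the members' levels was not tested. Summed expected counts per library ran from 11810532 to 26675589. In bulk RNA, fewer cells of a type and less RNA per cell cannot be told apart, and this holds for every level that follows.

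Together the 35 members made up 12702 ± 989 TPM (SD, n = 4) in PMSCs and 8157 ± 616 TPM in HSCs. In culture they reached 34370 ± 683 TPM in PMSC-MFs-3d, 44367 ± 1294 in PMSC-MFs-7d and 36598 ± 1747 in HSC-MFs-7d. The 10 smooth muscle specific members went from a small part of this, 785 ± 221 TPM in PMSCs and 571 ± 33.3 in HSCs, to 7814 ± 371, 13471 ± 1104 and 9531 ± 953 TPM in the same cultured groups. Per length, vimentin stood first in PMSCs at 5672 TPM, 44.7% of the members' total, and Myl6, the essential light chain, stood first in HSCs at 1059 TPM. In PMSC-MFs-7d the order was Vim at 6867, Acta2 at 5892 and Tagln at 4681 TPM, and in HSC-MFs-7d it was Tagln at 5236, Vim at 4351, Tpm1 at 3807 and Acta2 at 3178 TPM.

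**Figure D1:**
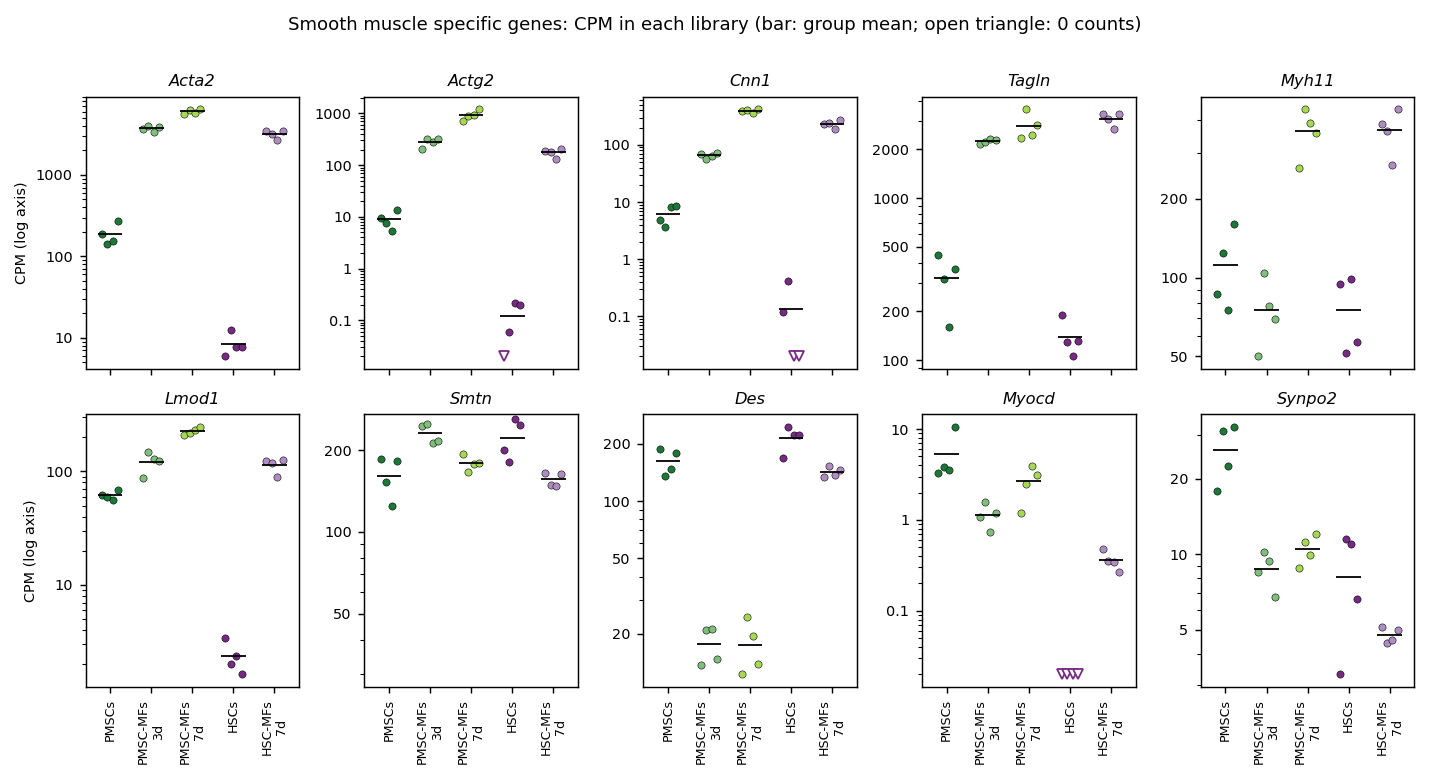
CPM (log axis) of the 10 smooth muscle specific members in each of the 20 libraries, by group; points are libraries, bars are group means and open triangles are libraries with 0 counts. Acta2, Actg2, Cnn1 and Lmod1 step up from HSCs to PMSCs to the cultured groups, while Des is lowest in both PMSC-derived cultures and Myocd is at 0 counts in all 4 HSC libraries.

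The first comparison asked how the freshly obtained cells of the 2 origins differ in contractile genes. Several smooth muscle genes were higher in PMSCs than in HSCs by wide margins. Acta2 was 22.4-fold and the filament nucleator Lmod1 26.0-fold higher. The gamma actin Actg2 and the calponin Cnn1 were close to the limit of detection in HSCs. Smtn was lower in PMSCs, and Myh11 and Des were not called. Widely expressed members went both ways: vimentin, Pdlim7 and the nonmuscle myosin Myh10 were higher in PMSCs, and nestin, Sorbs2 and the nonmuscle myosin Myh9 were higher in HSCs. By edgeR's quasi-likelihood test with an adjusted p under 0.05, which is what "called", "higher" and "lower" mean here, 19 of the 35 members were higher in PMSCs, beside 33.6% of all 14751 genes tested, and 10 were lower, beside 40.1%. The median log2 fold change was 0.57 over the members and -0.10 over all genes tested. The libraries of the 2 groups did not overlap for 25 of the 35 members and for 9032 of the 14751 genes tested. Of the 10 specific members 7 were higher and 1 was lower (median 3.08), and of the 25 widely expressed members 12 were higher and 9 lower (median 0.07). All 15 hepatocyte and 13 macrophage markers, 12 of 13 endothelial and 14 of 16 stellate cell markers were lower in PMSCs. Of 14 portal fibroblast markers 13 were higher. Of 16 vascular smooth muscle and pericyte markers tested, 5 were higher and 8 lower. Of 6 striated muscle markers tested, 5 were higher and 0 lower. The part of these cell types in the members' differences was not tested.

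Acta2 (chr19:34240336-34255585) stood at 187, 142, 155 and 275 CPM in the 4 PMSC libraries and at 5.91, 12.6, 7.65 and 7.71 CPM in the HSC libraries, where CPM is the count relative to the scaled size of the library, so that libraries of different depth can be compared. All PMSC libraries lay far above all HSC libraries, with a log2 fold change of 4.49 ± 0.22 (SE; edgeR adjusted p = 1e-12). Lmod1, which nucleates actin filaments in smooth muscle, was at 62.3, 59.8, 56.1 and 69.2 CPM in PMSCs and at 3.44, 2.03, 2.37 and 1.63 CPM in HSCs (log2 fold change 4.70 ± 0.20). Synpo2, a Z-disc and actin-bundling protein, was at 17.9, 31.1, 22.6 and 32.2 CPM against 3.32, 11.5, 10.9 and 6.60 CPM (log2 fold change 1.68 ± 0.28). For both genes the groups did not overlap. Transgelin, Tagln (chr9:45929628-45936058, overlapping Pcsk7), was at 445, 316, 160 and 366 CPM in PMSCs and at 191, 130, 106 and 131 CPM in HSCs, so that PMSC library 3 fell inside the HSC range (log2 fold change 1.21 ± 0.22, edgeR adjusted p = 7.6e-05).

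Some smooth muscle genes were barely counted in HSCs. Actg2 (chr6:83512909-83536251), the gamma actin of visceral smooth muscle, had 8 counts over the 4 HSC libraries against 9.31, 7.77, 5.33 and 13.6 CPM in PMSCs (log2 fold change 6.19 ± 0.46). Cnn1 (chr9:22099221-22109221), the calponin of smooth muscle, had 9 counts in HSCs against 4.79, 3.60, 8.04 and 8.66 CPM in PMSCs (5.47 ± 0.45, and 7.07 without HSC library 2, the library with most of those counts). Myocardin, Myocd (chr11:65173608-65269989), had 0 counts in HSCs and stood at 3.26, 3.79, 3.55 and 10.6 CPM in PMSCs. Set against the floor of 3 counts over the HSC group, 0.0449 CPM, Myocd was at least 118-fold higher in PMSCs. Such floors cover counting error only.

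Myh11, Des and Smtn differed by smaller amounts between the fresh cells. Myh11 (chr16:14194527-14292188), the myosin heavy chain of smooth muscle, was at 86.3, 125, 75.4 and 160 CPM in PMSCs and at 94.2, 51.3, 98.7 and 56.5 CPM in HSCs. The groups overlapped (0.57 ± 0.26, edgeR adjusted p = 0.058), and the difference was called without PMSC library 1 or 3 or HSC library 1 or 3, and by DESeq2 (0.63, adjusted p = 0.023). Desmin, Des (chr1:75360292-75368579, overlapping Gm15179), was at 188, 135, 148 and 179 CPM against 169, 246, 224 and 224 CPM (-0.41 ± 0.18, edgeR adjusted p = 0.052), also overlapping. It was called in several fits that left out 1 library, for example -0.52 (adjusted p = 0.021) without HSC library 1, and at -0.75 (adjusted p = 0.0013) by edgeR with library totals alone and -0.79 (adjusted p = 0.00062) by limma on log2(TPM + 1). Smoothelin, Smtn, was the specific member called lower in PMSCs (-0.46 ± 0.12), at 161 ± 28.7 CPM against 222 ± 38.2 CPM, a call lost in the edgeR fit of these 2 groups alone (-0.37, adjusted p = 0.062).

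Among the widely expressed members, vimentin, Vim (chr2:13574311-13582826), had the largest difference. It stood at 5776, 5194, 5569 and 5743 CPM in PMSCs and at 439, 696, 519 and 544 CPM in HSCs, with no overlap (log2 fold change 3.34 ± 0.12, edgeR adjusted p = 1.1e-14). Pdlim7, a PDZ and LIM domain adaptor of actin filaments, was at 151, 209, 184 and 197 CPM against 38.6, 41.6, 35.6 and 37.1 CPM (2.28 ± 0.09). Myh10, a nonmuscle myosin heavy chain, was at 352, 393, 299 and 464 CPM against 67.4, 78.9, 78.8 and 90.9 CPM (2.26 ± 0.16). Both were higher in every PMSC library than in any HSC library. Srf (chr17:46546838-46558267) was higher as well, at 242, 185, 165 and 180 CPM against 73.8, 59.1, 65.2 and 61.7 CPM (1.57 ± 0.12).

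Members higher in HSCs included Nes, at 20.9, 22.4, 18.1 and 36.6 CPM in PMSCs and 105, 97, 139 and 168 CPM in HSCs (-2.37 ± 0.22). Sorbs2, an adaptor of stress fibres that overlaps Sorbs2os, was at 1.2, 3.22, 0 and 2.79 CPM in PMSCs and at 13.0, 18.8, 4.40 and 15.6 CPM in HSCs (-2.72 ± 0.44). Neither gene overlapped between the groups. Myh9, the heavy chain of nonmuscle myosin IIA, was at 442 ± 70.1 CPM against 1463 ± 134 CPM (-1.73 ± 0.11). The calls of Cnn2 (-0.40 ± 0.13) and Tpm3 (0.29 ± 0.10) were each lost without 1 library: Cnn2 at -0.25 without PMSC library 2 (and -0.32 in the fit of these 2 groups alone) and Tpm3 at 0.24 without HSC library 2. With library totals alone in place of scaled sizes, Tpm3 was at -0.06, and the split of the members moved from 19 higher and 10 lower to 17 and 15.

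**Figure D2:**
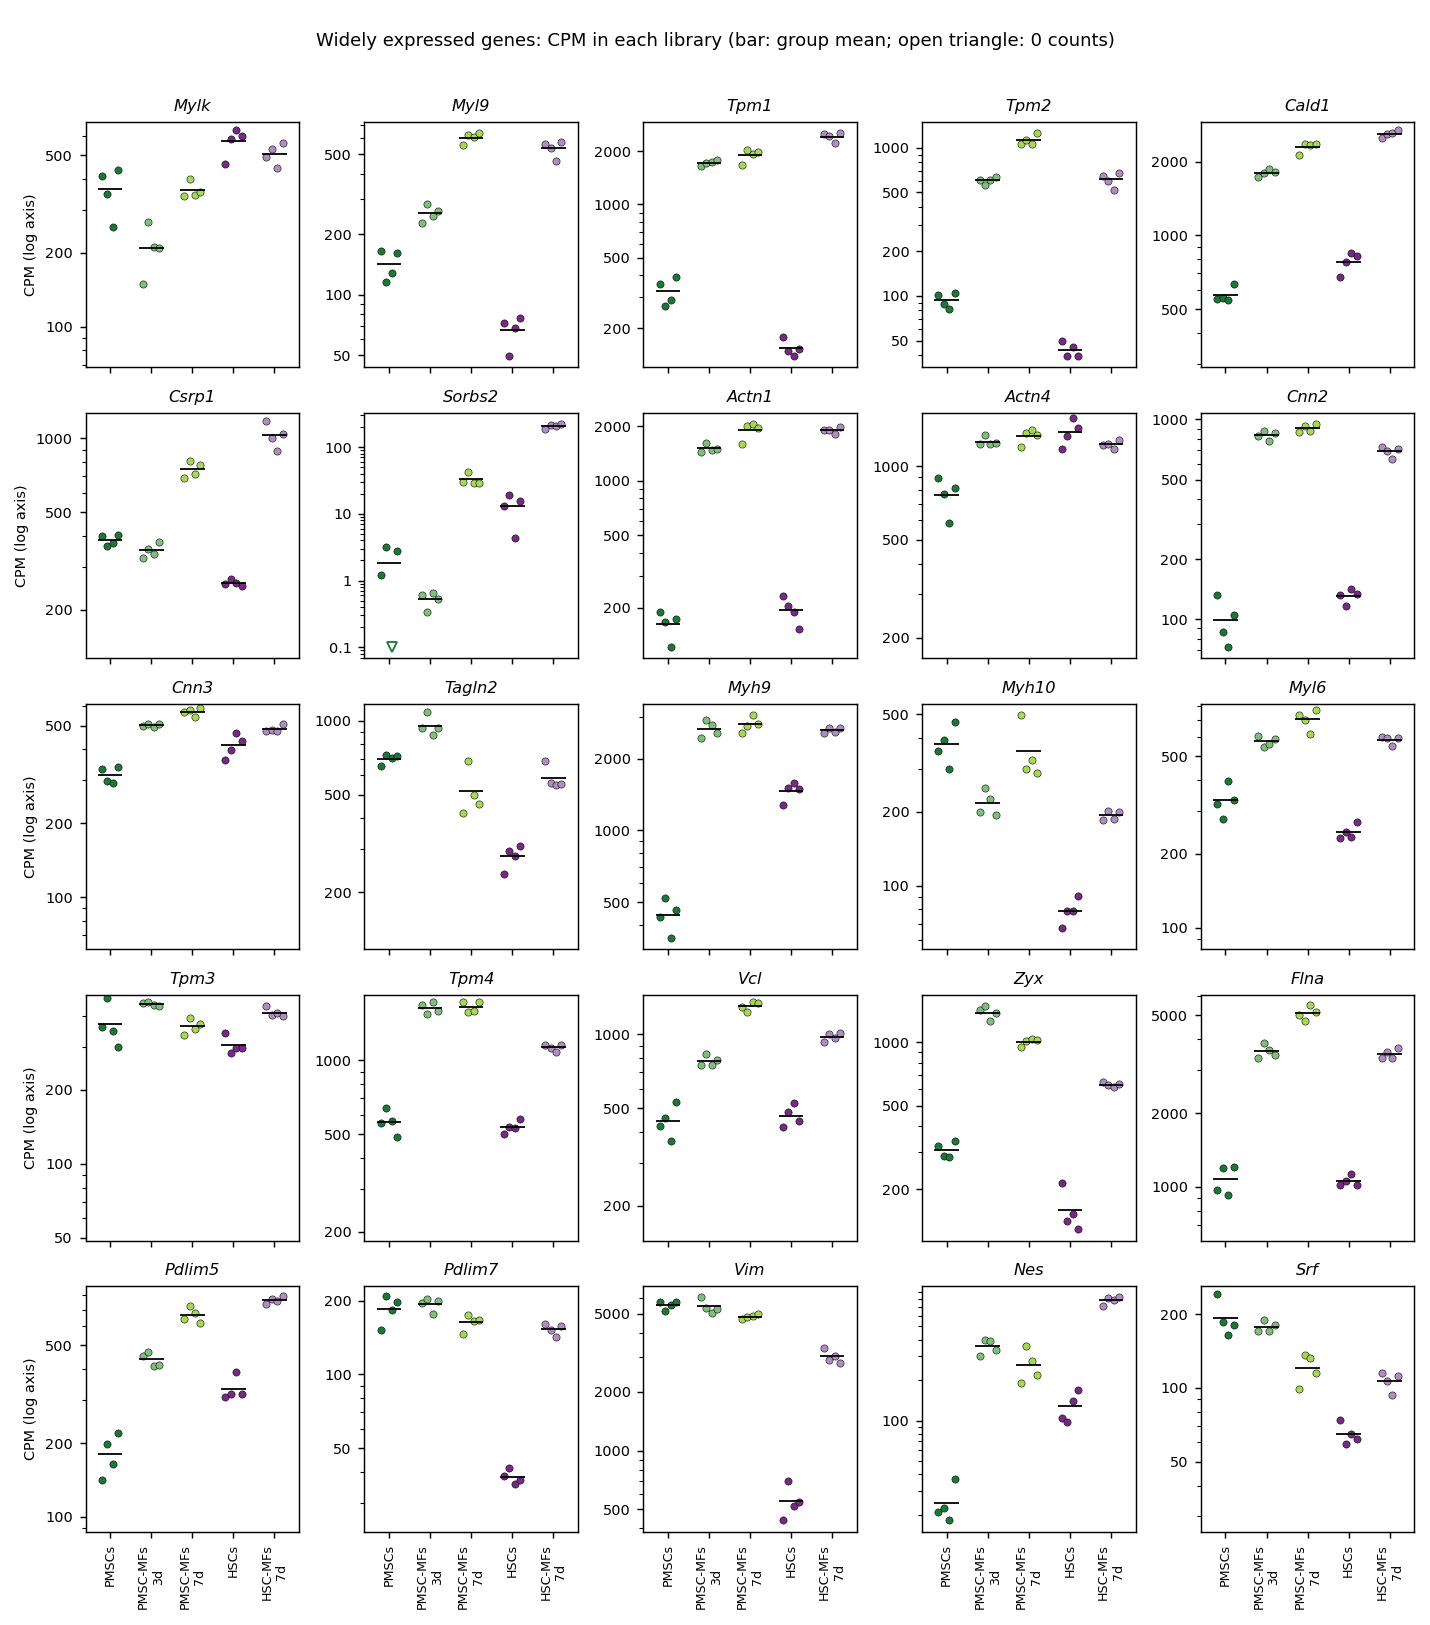
CPM (log axis) of the widely expressed members in each of the 20 libraries, by group; points are libraries, bars are group means and open triangles are libraries with 0 counts. Vim separates HSCs from the other groups, Sorbs2 is lowest in PMSC-MFs-3d and highest in HSC-MFs-7d, and Actn1, Tpm1 and Cnn2 are higher in all cultured libraries than in all fresh ones.

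The next comparison asked what the first 3 days of culture did to PMSCs. Acta2 rose 19.8-fold and Tagln 6.97-fold, and genes of the nonmuscle machinery rose at the same time: alpha-actinin 1, calponin 2, nonmuscle myosin IIA and beta-tropomyosin. Desmin, myocardin and Synpo2 fell over the same time, and Myh11, Vim and Srf were not called. Of the 35 members 24 rose, beside 37.2% of all genes tested, and 6 fell, beside 41.1%. The median log2 fold change was 0.81 over the members and -0.07 over all genes. Libraries did not overlap for 27 members and for 10336 of the 14751 genes tested. The specific members gave 6 higher and 3 lower (median 0.75), and the widely expressed members gave 18 higher and 3 lower (median 0.81). With library totals alone the split of the members was 28 higher and 3 lower. Over the same days all 15 hepatocyte, 13 endothelial and 16 stellate cell markers and 12 of 14 portal fibroblast markers fell, and Fgb, Cyp3a11 and Colec10 were at 0 in PMSC-MFs-3d; their part in the members' changes was not tested.

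In PMSC-MFs-3d Acta2 stood at 3706, 3999, 3420 and 3903 CPM, every library above every PMSC library (log2 fold change 4.31 ± 0.21, edgeR adjusted p = 5.1e-13). Actg2 was at 206, 315, 278 and 322 CPM (4.94 ± 0.26) and Cnn1 at 70.6, 57.2, 64.9 and 73.1 CPM (3.42 ± 0.24). Tagln reached 2164, 2223, 2318 and 2279 CPM (2.80 ± 0.24). None of these genes overlapped with its PMSC values. Lmod1 (0.98 ± 0.16) and Smtn (0.52 ± 0.12) rose by less.

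Des fell to 13.7, 20.9, 21.3 and 14.7 CPM, below every PMSC library (-3.20 ± 0.20, edgeR adjusted p = 1.8e-11). Myocd was at 1.07, 1.57, 0.734 and 1.2 CPM, also below every PMSC library (-2.21 ± 0.46, and -1.62 without PMSC library 4, the library highest for this gene). Synpo2 fell by 1.57 ± 0.27 on the log2 scale. Myh11 was at 50.0, 104, 77.8 and 69.3 CPM and overlapped its PMSC values (-0.57 ± 0.26, edgeR adjusted p = 0.055); without PMSC library 1, PMSC library 3 or PMSC-MFs-3d library 2 it was called lower, at -0.67, -0.71 and -0.73, as it was by DESeq2 (-0.63, adjusted p = 0.02). Vim, at 6072, 5388, 5074 and 5327 CPM, was not called (-0.03 ± 0.11), and neither was Srf, at 171, 189, 171 and 180 CPM (-0.12 ± 0.11); with library totals alone both were called higher, at 0.48 and 0.39.

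Nestin, the intermediate filament protein of many progenitor cells, rose to 304, 400, 389 and 336 CPM (3.86 ± 0.24). Actn1, which cross-links actin at focal adhesions, rose to 1432, 1616, 1473 and 1493 CPM (3.21 ± 0.14), and Cnn2 to 824, 871, 776 and 853 CPM (3.07 ± 0.14). Each of the 3 genes was higher in every 3-day library than in any PMSC library. Tpm2 rose to 608, 561, 610 and 636 CPM (2.68 ± 0.11) and Myh9 to 2432, 2919, 2760 and 2563 CPM (2.59 ± 0.11). The widely expressed members that fell were Mylk, the light chain kinase (-0.79 ± 0.16), Myh10 (-0.80 ± 0.15) and Sorbs2, which was at 3.22 CPM or less in PMSCs (-1.86 ± 0.59). With library totals alone none of the 3 was called, at -0.28, -0.29 and -1.35 (edgeR adjusted p = 0.1, 0.11 and 0.051). Sorbs2 was also not called in the edgeR fit of these 2 groups alone (-1.73, adjusted p = 0.052) or by limma on log2(TPM + 1) (-0.36, adjusted p = 0.26). The smallest call, Tpm3 (0.27 ± 0.10), was lost without PMSC library 3 (0.25) or 4 (0.19) and by DESeq2 (0.20).

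Between 3 and 7 days of PMSC culture several genes of smooth muscle rose further. Cnn1 (5.99-fold), Myh11 (4.82-fold), Actg2, Lmod1 and Acta2 (1.61-fold) rose, Sorbs2 rose from below 1 CPM, and Myl9, Csrp1 and Tpm2 of the enriched members rose with them. Tagln2, Zyx and Srf fell. Of the 35 members 18 rose, beside 18.6% of all genes, and 6 fell, beside 17.4%. The median log2 fold change was 0.32, against 0.004 over all genes. Libraries of the 2 times did not overlap for 25 members and for 6179 of the 14751 genes tested. The specific members gave 6 higher and 1 lower (median 0.79), the 7 enriched members 6 higher and none lower (median 0.90), and the other 18 widely expressed members 6 higher and 5 lower (median 0.07); the difference between these lists was not tested. The number lower was 3 without PMSC-MFs-3d library 1 or 2, and the split was 19 and 3 by limma on log2(TPM + 1). Of 16 vascular smooth muscle and pericyte markers tested, 9 rose and 3 fell in the same step, their summed TPM going from 62.0 to 75.8 at 3 days to 221 to 313 at 7 days. Of 8 mesothelial markers 3 rose and none fell, from 20.9 to 29.8 TPM at 3 days to 68.4 to 135 TPM at 7 days, with Krt18 at 0 in every 3-day library and Krt8 at 0 in every 7-day library. The part of these cell types in the members' changes was not tested.

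Cnn1 reached 392, 412, 365 and 424 CPM at 7 days, above all 3-day libraries (2.58 ± 0.22, edgeR adjusted p = 4.7e-08). Myh11, not called at 3 days, reached 263, 441, 389 and 358 CPM (2.27 ± 0.27, edgeR adjusted p = 3.5e-06). Actg2 reached 713, 910, 931 and 1219 CPM (1.75 ± 0.22). None of these overlapped between the times. Lmod1 rose to 209, 220, 233 and 247 CPM (0.90 ± 0.15) and Acta2 to 5611, 6316, 5847 and 6463 CPM (0.69 ± 0.19). Tagln, at 2365, 3548, 2469 and 2842 CPM, was not called (0.32 ± 0.22), and Des stayed low, at 12.2, 24.6, 19.4 and 13.9 CPM (-0.01 ± 0.19).

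Sorbs2 went from 0.609, 0.337, 0.660 and 0.527 CPM at 3 days to 30.4, 42.8, 28.8 and 29.1 CPM at 7 days (5.92 ± 0.48). Myl9, the regulatory light chain of smooth muscle myosin, rose to 556, 621, 608 and 637 CPM from 228, 282, 247 and 261 (1.25 ± 0.13). Csrp1, a LIM protein of the actin cytoskeleton, rose to 689, 806, 714 and 780 CPM from 326, 356, 338 and 379 (1.10 ± 0.08). These 3 genes did not overlap between the times. Tpm2 rose by 0.90 ± 0.10 to 1054, 1123, 1061 and 1256 CPM, and Tagln2, the widely expressed transgelin, fell by 0.89 ± 0.13 from 931, 1083, 874 and 931 to 420, 686, 496 and 457 CPM.

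Several small calls of this step rested on few libraries. Myocd rose by 1.23 ± 0.45 to 1.19, 2.49, 3.96 and 3.15 CPM, overlapping the 3-day values, and the call was lost in 8 of the 20 fits that left out a library. The call of Actn1 (0.34 ± 0.13) was lost in 11 of them and that of Pdlim7 (-0.25 ± 0.09) in 6. Those of Tpm3 (-0.30 ± 0.10) and of Smtn (-0.37 ± 0.12) and Myl6 (0.30 ± 0.09) were lost in 4, 3 and 3. With library totals alone the calls of Myocd, Actn1 and Myl6 were lost, and by limma those of Smtn, Tpm3 and Pdlim7.

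Set against PMSCs directly, PMSC-MFs-7d had 24 members higher, beside 38.1% of all genes, and 5 lower, beside 39.0%, with a median log2 fold change of 1.70 against -0.002 over all genes. This comparison shares its PMSC libraries with the 3-day comparison and its 7-day libraries with the step before, so it is no separate evidence. The specific members gave 6 higher and 3 lower (median 1.79), and the widely expressed members 18 higher and 2 lower (median 1.55). Libraries did not overlap for 28 members and for 9839 of the 14751 genes tested. The largest specific changes were Actg2 (6.69 ± 0.28), Cnn1 (6.00 ± 0.26), Acta2 (5.0 ± 0.22), Des (-3.21 ± 0.20) and Tagln (3.12 ± 0.24). Among widely expressed members they were Sorbs2 (4.06 ± 0.43), Tpm2 (3.58 ± 0.11), Actn1 (3.55 ± 0.14), Nes (3.39 ± 0.23) and Cnn2 (3.19 ± 0.14). Srf fell by 0.68 ± 0.11 to 99.3, 136, 132 and 115 CPM, below every PMSC library, but was not called by edgeR with library totals alone (-0.22, adjusted p = 0.076) or by limma on log2(TPM + 1) (-0.19, adjusted p = 0.11), while Vim, at 4700, 4848, 4857 and 4977 CPM, was not called (-0.20 ± 0.11). Myocd was called lower (-0.98 ± 0.43, edgeR adjusted p = 0.05 after rounding), and that call was lost in 16 of 20 fits that left out a library, reaching -0.39 (adjusted p = 0.39) without PMSC library 4. With library totals alone the split was 30 and 2, and Vim and Tagln2 turned from -0.20 and -0.44 to 0.26 and 0.02.

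From HSCs to HSC-MFs-7d nearly the whole list rose, Acta2 by 379.9-fold and Tagln by 22.2-fold. Acta2, Actg2 and Cnn1 went from at most 12.6 CPM in any HSC library to 130 CPM or more in every cultured library, and 23 of the 25 widely expressed members rose while none was called lower. Des, Smtn and Synpo2 fell, but Des remained far above its level in the PMSC cultures. Of the 35 members 30 rose, beside 36.0% of all genes, and 3 fell, beside 38.5%. The median log2 fold change was 1.98 against -0.03 over all genes. Libraries did not overlap for 32 members and for 10524 of the 14751 genes tested. The specific members gave 7 higher and 3 lower (median 5.03, or 3.73 with Myocd at its lower bound), and the widely expressed members had a median of 1.72.

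Acta2 stood at 3472, 3204, 2697 and 3499 CPM in HSC-MFs-7d, every library above every HSC library (8.57 ± 0.26, edgeR adjusted p = 1.3e-15). Cnn1 was at 236, 237, 193 and 268 CPM (10.70 ± 0.39, and 12.32 without HSC library 2) and Actg2 at 191, 181, 130 and 202 CPM (10.45 ± 0.41), both against fewer than 10 counts in all HSC libraries, which makes the size of these folds uncertain. Lmod1 rose to 124, 119, 88.6 and 127 CPM (5.59 ± 0.20). Tagln rose to 3311, 3085, 2673 and 3296 CPM (4.47 ± 0.25). Myh11 rose to 388, 365, 269 and 440 CPM (2.28 ± 0.27). None of these genes overlapped between HSCs and HSC-MFs-7d.

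Myocd was detected in all 4 HSC-MFs-7d libraries at 0.473, 0.355, 0.341 and 0.266 CPM, at least 7.99-fold above the floor of HSCs, and remained the lowest member per length there. Its rise was not called by limma on log2(TPM + 1) (0.23, adjusted p = 0.34). Des fell to 135, 152, 137 and 145 CPM (-0.60 ± 0.18, edgeR adjusted p = 0.0062), below every HSC library. Smtn fell by 0.51 ± 0.12, and Synpo2 by 0.76 ± 0.28, a call lost without HSC library 2 (-0.53) or 3 (-0.57) or HSC-MFs-7d library 2 (-0.71), in the fit of these 2 groups alone (-0.73) and by limma (-0.36). Vim rose to 3349, 2889, 3059 and 2822 CPM (2.46 ± 0.11), and Srf to 115, 107, 93.9 and 112 CPM (0.72 ± 0.12), both without overlap.

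Of the widely expressed members Sorbs2 rose most, to 185, 215, 209 and 221 CPM (4.00 ± 0.38). Tpm1, the alpha-tropomyosin, rose to 2491, 2428, 2234 and 2530 CPM from 179, 150, 139 and 153 (3.96 ± 0.12), and Tpm2 to 649, 601, 519 and 674 CPM from 49.6, 39.3, 45.3 and 39.2 (3.82 ± 0.11). Actn1 rose to 1913, 1893, 1802 and 1966 CPM (3.29 ± 0.14) and Myl9 to 561, 539, 461 and 578 CPM (3.0 ± 0.14). All were higher in each cultured library than in any HSC library. Actn4 (-0.16 ± 0.11) and Mylk (-0.17 ± 0.16) were not called. All markers of hepatocytes (15), endothelial cells (13), macrophages (13) and stellate cells (16) were called lower in the same comparison, at summed TPM of at most 129, 579, 134 and 1814 in HSC-MFs-7d, where Serpina1a, Serpina1c and Timd4 were at 0. Their part in the members' changes was not tested.

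**Figure D3:**
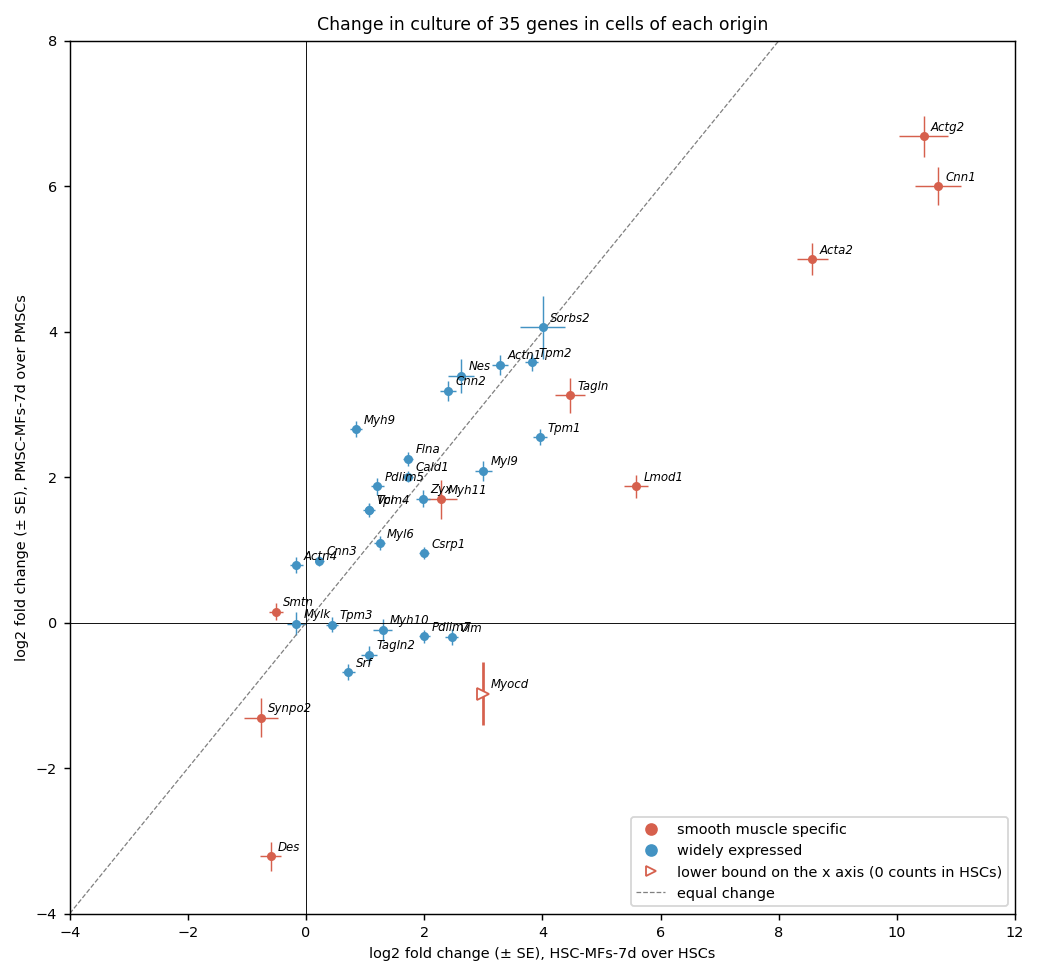
Log2 fold change of each member in culture, HSC-MFs-7d against HSCs on the horizontal axis and PMSC-MFs-7d against PMSCs on the vertical axis; the dashed line marks equal changes, and Myocd is placed at its lower bound on the horizontal axis. Acta2, Actg2 and Cnn1 lie far below the line on the HSC side, Myh9 lies above it, and Des is at -0.60 for HSCs and at -3.21 for PMSCs.

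The cultured cells of the 2 origins were then compared at 7 days by title. The smooth muscle actins, Lmod1, Synpo2 and Myocd were higher in cells from PMSCs, and desmin (8.12-fold), Sorbs2 (6.33-fold) and nestin were higher in cells from HSCs. Tagln, Myh11, Actn1 and Myh9 were not called. Of the 35 members 16 were higher in PMSC-MFs-7d, beside 23.9% of all genes, and 6 were lower, beside 23.1%. The median log2 fold change was 0.18 over the members and 0 over all genes, and the median size without its sign was 0.42 against 0.45 over all genes. Before culture the same size was 1.07 over the members and 0.90 over all genes. Libraries of the 2 cultured groups did not overlap for 26 members and for 7702 of the 14751 genes tested. The specific members gave 6 higher and 1 lower (median 0.84), the 7 enriched members 1 higher and 4 lower (median -0.35), and the other 18 members 9 higher and 1 lower (median 0.21). Of the markers, 14 of 16 for stellate cells, 11 of 13 for endothelial cells and 9 of 13 for macrophages were lower in PMSC-MFs-7d, and 10 of 14 for portal fibroblasts were higher; their part was not tested.

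Des, at 12.2 to 24.6 CPM in PMSC-MFs-7d and 135 to 152 CPM in HSC-MFs-7d, differed most (-3.02 ± 0.20, edgeR adjusted p = 4.5e-10). Actg2 was at 713 to 1219 CPM against 130 to 202 CPM (2.42 ± 0.23), and Myocd at 1.19 to 3.96 CPM against 0.266 to 0.473 CPM (2.89 ± 0.51). Synpo2 was at 8.80, 11.1, 9.93 and 12 CPM against 5.10, 4.41, 4.56 and 4.99 CPM (1.13 ± 0.28). None of the 4 overlapped. Lmod1 (0.99 ± 0.15), Acta2 (0.91 ± 0.19) and Cnn1 (0.77 ± 0.20) were higher by less, again without overlap. Tagln (-0.14 ± 0.22) and Myh11 (-0.01 ± 0.26) overlapped and were not called.

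Among the widely expressed members Sorbs2 was at 28.8 to 42.8 CPM against 185 to 221 CPM (-2.66 ± 0.35) and Nes at 189, 355, 276 and 217 CPM against 715, 816, 790 and 822 CPM (-1.60 ± 0.21). Tpm2 (0.88 ± 0.10), Myh10 (0.86 ± 0.15) and Vim (0.68 ± 0.11) were higher in cells from PMSCs, each without overlap. Csrp1 (-0.46 ± 0.08), Mylk (-0.50 ± 0.16) and Tpm1 (-0.35 ± 0.11) were lower, and the call of Tpm1 was lost without PMSC-MFs-7d library 1 (-0.28, edgeR adjusted p = 0.051). That of Myl6 (0.28 ± 0.09) was lost without PMSC-MFs-7d library 4 (0.24) or HSC-MFs-7d library 3 (0.26).

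**Figure D4:**
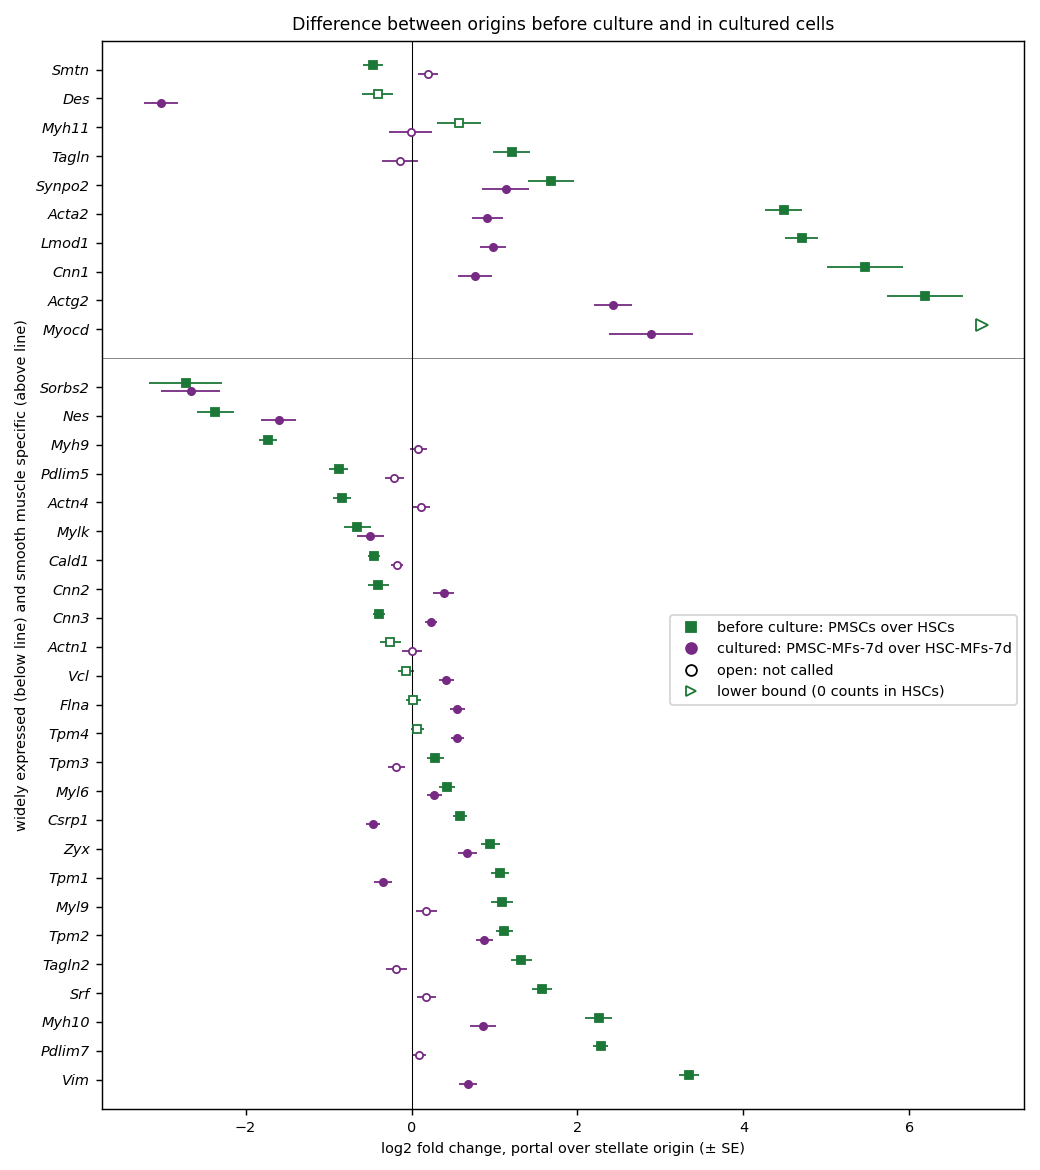
Log2 fold change of each member between the 2 origins with its standard error, before culture (squares, PMSCs against HSCs) and after 7 days by title (circles, PMSC-MFs-7d against HSC-MFs-7d); open symbols were not called, and the triangle is the lower bound of Myocd before culture. Acta2, Actg2, Cnn1, Lmod1 and Vim sit closer to 0 after culture, and Des is farther from 0, at -3.02 against -0.41.

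Whether culture changed a member by a different amount in the 2 origins was tested directly, as the change from PMSCs to PMSC-MFs-7d minus the change from HSCs to HSC-MFs-7d. The difference was positive for 11 members, beside 31.4% of all genes, and negative for 16, beside 29.2%. Its median was -0.47 over the members and 0.10 over all genes. Of the specific members 7 were negative and 1, Smtn, was positive (median -3.09), and of the widely expressed members 10 were positive and 9 negative (median 0.06).

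Cnn1 (-4.70 ± 0.54, and -6.29 without HSC library 2), Actg2 (-3.76 ± 0.60), Lmod1 (-3.72 ± 0.25) and Acta2 (-3.57 ± 0.28) rose by more from HSCs than from PMSCs (edgeR adjusted p from 2.4e-10 to 2e-05). For these 4 genes the starting level was lower in HSCs, as given above. Des gave -2.61 ± 0.27 since it fell by more from PMSCs, and for Myocd the difference was at or below -3.98 with HSCs at the floor. That bound takes in the Myocd change from PMSCs, whose call was lost in 16 of 20 fits that left out a library. By limma on log2(TPM + 1) the Myocd difference was not called (-0.48, adjusted p = 0.15). Vim (-2.66 ± 0.15), Pdlim7 (-2.19 ± 0.13), Tagln2 (-1.51 ± 0.18) and Tpm1 (-1.41 ± 0.15) were also negative. Myh9 was the largest in the other direction (1.81 ± 0.15), rising by 2.66 from PMSCs and by 0.85 from HSCs. The calls of Cald1 (0.28 ± 0.11) and Nes (0.77 ± 0.30) were lost in 6 and 9 fits that left out a library, with the smallest Cald1 value, 0.15, without PMSC library 2.

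Of the adhesion members taken here, Flna, Vcl, Zyx and Pdlim5 rose in culture from both origins, and Actn4 was called higher in cells from PMSCs and not called in cells from HSCs. Filamin A, Flna, which cross-links actin below the membrane, was at 1074 ± 149 CPM in PMSCs and 1057 ± 52.8 CPM in HSCs (0.02 ± 0.09, not called, and -0.32 with library totals alone). It rose to 3568 ± 216 CPM in PMSC-MFs-3d (1.73 ± 0.09), 5118 ± 319 CPM in PMSC-MFs-7d and 3493 ± 162 CPM in HSC-MFs-7d (1.72 ± 0.09). Vinculin, Vcl (overlapping Ap3m1), which links talin to actin, was at 445 ± 69.1 CPM in PMSCs and 466 ± 45.8 CPM in HSCs (-0.07 ± 0.10, not called, but called at -0.41 with library totals alone). It ranged from 747 to 833 CPM in PMSC-MFs-3d (0.81 ± 0.10) and was at 1307 ± 54.1 CPM in PMSC-MFs-7d and 976 ± 37.1 CPM in HSC-MFs-7d (1.07 ± 0.10). Both genes were higher in PMSC-MFs-7d than in HSC-MFs-7d without overlap (Flna 0.55 ± 0.09, Vcl 0.42 ± 0.09). Zyxin, Zyx (overlapping Epha1), which gathers at strained stress fibres, was highest at 3 days, at 1380.2 ± 94.4 CPM, and fell to 1004 ± 38.5 CPM at 7 days (-0.46 ± 0.11, no overlap).

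Pdlim5, an adaptor of alpha-actinin, was lower in PMSCs, at 181 ± 35.4 CPM against 332 ± 38.2 CPM in HSCs (-0.88 ± 0.11), and was at 664 ± 47.3 CPM in PMSC-MFs-7d and 766 ± 26.8 CPM in HSC-MFs-7d (-0.21 ± 0.11, not called, although the libraries did not overlap). Actn4 (overlapping Capn12) was also lower in PMSCs (-0.84 ± 0.11). It rose in cells from PMSCs, from 765 ± 130 to 1258 ± 52.7 CPM at 3 days (0.72 ± 0.11), where in cells from HSCs it was at 1372 ± 167 CPM before and 1225 ± 39.4 CPM after culture (-0.16 ± 0.11, not called). The 2 changes differed by 0.96 ± 0.15 between PMSC-MFs-7d and HSC-MFs-7d, each against its fresh cells, and the 7-day groups overlapped (0.11 ± 0.11, not called).

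On the filament, Cald1, the caldesmon that restrains myosin, rose from 571 ± 41.3 CPM in PMSCs to 1804 ± 51.3 CPM at 3 days (1.66 ± 0.08) and from 781 ± 73.4 CPM in HSCs to 2591 ± 79.9 CPM in HSC-MFs-7d (1.73 ± 0.08). Tpm4, a tropomyosin of nonmuscle filaments, was at 562 ± 62.4 and 537 ± 30.4 CPM in the fresh cells (0.07 ± 0.08, not called, and -0.28 with library totals alone), and was higher in PMSC-MFs-7d, at 1653 ± 89.1 CPM, than in HSC-MFs-7d, at 1128 ± 34.5 CPM (0.55 ± 0.08). The 2 fresh groups overlapped and the 2 cultured groups did not. Of the remaining calponin and light chain genes, Cnn3 rose by 0.67 ± 0.08 from PMSCs to PMSC-MFs-3d. From HSCs to HSC-MFs-7d it rose by 0.22 ± 0.08. Myl6 rose by 0.79 ± 0.09 and 1.25 ± 0.09 in the same comparisons, which differ in time by title. With PMSC-MFs-7d in place of PMSC-MFs-3d, the difference between the origins was not called for Myl6 (-0.15, edgeR adjusted p = 0.33). It was called for Cnn3 (0.63) and for Cald1 (0.28, lost in 6 fits that left out a library). Mylk, the kinase upstream of the light chains, was at 362 ± 80.6 CPM in PMSCs, 209 ± 48.0 CPM at 3 days and 359 ± 27.6 CPM at 7 days, so that a fall (-0.79 ± 0.16) was followed by a rise (0.78 ± 0.16). PMSCs and PMSC-MFs-3d overlapped for Mylk, and the fall was not called with library totals alone (-0.28). In cells from HSCs Mylk was at 569.9 ± 75.4 CPM before and 507 ± 49.4 CPM after culture (-0.17 ± 0.16, not called).

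Within protein families, the make-up was read as each gene's share of the summed TPM of its family, with the beta and gamma cytoplasmic actins Actb and Actg1 added to the actins. In HSCs Actb held 82.2 ± 0.40% of actin TPM (SD, n = 4) and Acta2 held 0.227 ± 0.093%. In PMSCs Acta2 held 7.0 ± 2.1%, in PMSC-MFs-3d 22.2 ± 0.56%, in PMSC-MFs-7d 30.6 ± 1.0% and in HSC-MFs-7d 22.9 ± 1.8%. The total of the family grew as well, from 1897 to 19272 TPM between PMSCs and PMSC-MFs-7d and from 3482 to 13846 TPM between HSCs and HSC-MFs-7d. Shares of actins are uncertain to the extent that reads shared by near-identical copies were divided between them by the authors' counting.

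In the transgelin family the smooth muscle gene Tagln went from 27.5 ± 8.6% in PMSCs and 29.7 ± 7.4% in HSCs to 82.3 ± 1.4% and 81.8 ± 1.5% in the 7-day cultures. Calponins went from Cnn3 to Cnn2 as the main member: Cnn3 held 72.9 ± 3.6% in PMSCs and 73.4 ± 1.8% in HSCs, and Cnn2 held 51.5 ± 0.70% and 52.3 ± 1.2% in the 7-day cultures. Cnn1 was at 4.42 ± 0.49% at 3 days and 20.05 ± 0.52% at 7 days in cells from PMSCs. Alpha-actinins exchanged places too, Actn4 holding 80.5 ± 0.59% in PMSCs and Actn1 59.7 ± 1.0% in PMSC-MFs-7d, with 61.6 ± 0.26% for Actn1 in HSC-MFs-7d.

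The myosin heavy chains differed most between the fresh cells. Myh9 held 47.8 ± 3.5% and Myh10 38.8 ± 1.9% in PMSCs, while Myh9 alone held 90 ± 1.6% in HSCs. By 3 days Myh9 held 90.2 ± 0.76% in cells from PMSCs, and by 7 days Myh11 held 11.6 ± 2.1%, close to its 12.8 ± 2.1% in HSC-MFs-7d. Among intermediate filaments Vim held 98.3 ± 0.19% in PMSCs and 77.5 ± 2.3% in HSCs, where Des held 17.4 ± 1.0%. Tpm1 held 59.2 ± 0.35% of tropomyosin TPM in HSC-MFs-7d and 44.0 ± 2.4% in PMSC-MFs-7d, where Tpm2 and Tpm4 held 19.6 ± 0.82% and 30.3 ± 2.3%. FPKM in place of TPM moved no share by more than 0.0014 percentage points.

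**Figure D5:**
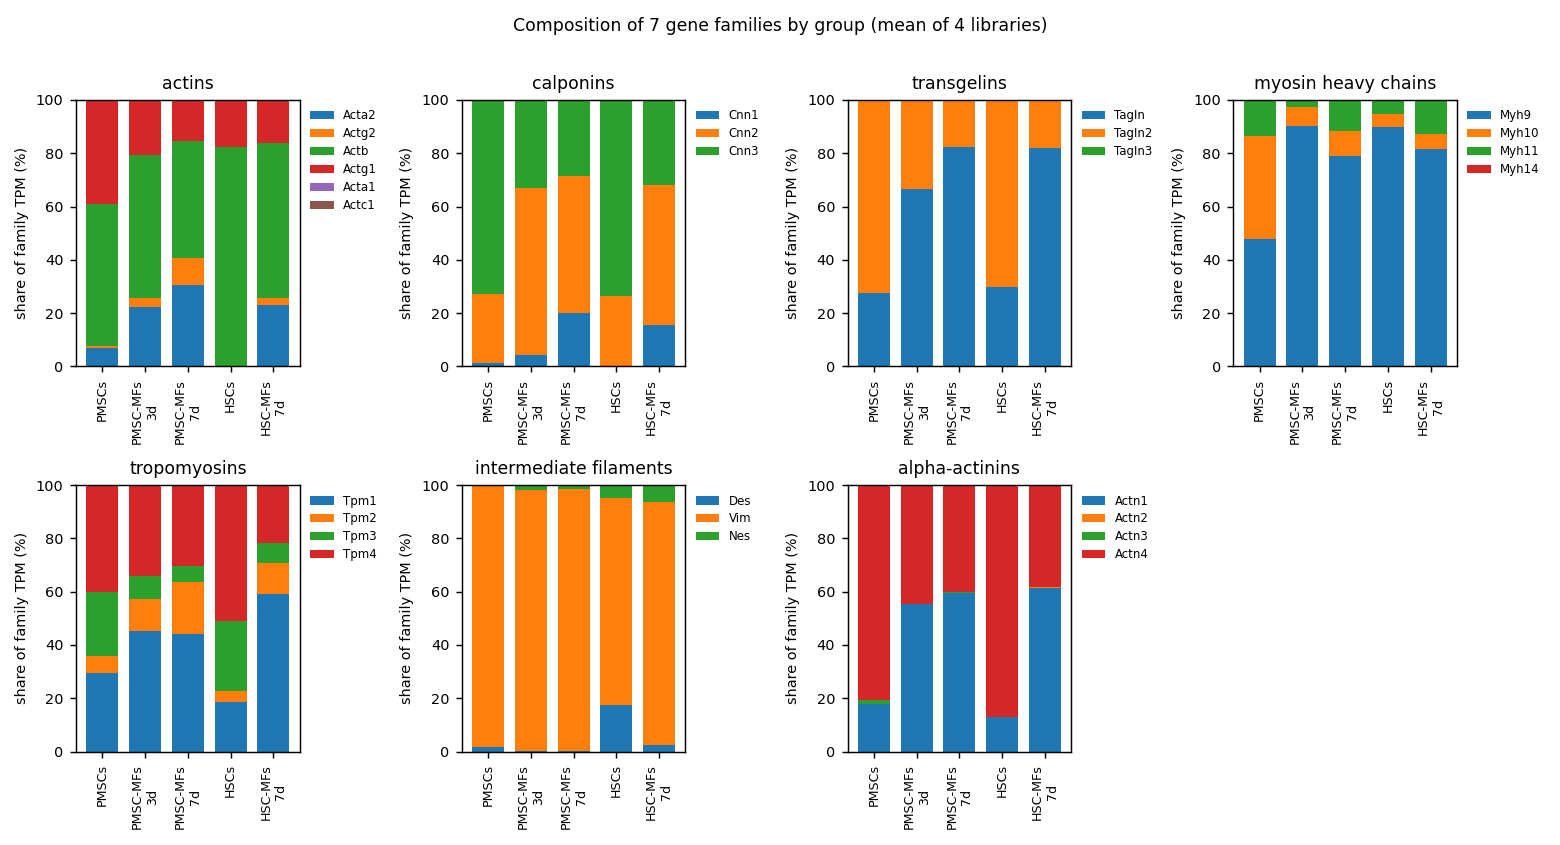
Share of each gene in the summed TPM of its protein family, as the mean of 4 libraries per group (stacked bars, axis from 0 to 100%). Acta2, Tagln, Cnn2 and Actn1 take larger shares in the cultured groups, and Myh10 holds 38.8% in PMSCs.

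Genes around the members were read from lists of the same pathway. Mkl1, the Srf coactivator that senses free actin, rose from 43.6 ± 4.2 CPM in PMSCs to 160.3 ± 7.3 CPM in PMSC-MFs-3d (1.88 ± 0.15) and from 35 ± 11 CPM in HSCs to 161 ± 5.4 CPM in HSC-MFs-7d (2.20 ± 0.15). These comparisons differ in time by title, 3 days for PMSC-MFs-3d and 7 days for HSC-MFs-7d, and so do the pairs of values that follow. Klf4, a repressor of smooth muscle genes, fell in both (-5.46 ± 0.18 and -3.71 ± 0.16). Diaph3, a formin that elongates actin filaments, rose in both (7.28 ± 0.19 and 3.76 ± 0.14), and so did the LIM protein Fhl2 (2.57 ± 0.24 and 4.09 ± 0.27).

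Over all genes tested, 37.2% rose and 41.1% fell from PMSCs to PMSC-MFs-3d, and 36.0% rose and 38.5% fell from HSCs to HSC-MFs-7d, and the counts of the lists that follow stand beside these shares. Of 29 other focal adhesion and stress fibre genes 16 rose and 8 fell from PMSCs to PMSC-MFs-3d, and 19 rose and 4 fell from HSCs to HSC-MFs-7d. Filamin C, Flnc, was also far higher in PMSCs, at 189 ± 27 CPM in PMSCs and 1.12 ± 0.35 CPM in HSCs (7.40 ± 0.17), and was at 616 ± 74 and 514 ± 4.3 CPM in the 7-day cultures (0.26 ± 0.12, not called). The zyxin partner Tes rose in both origins (6.33 ± 0.31 at 3 days from PMSCs, 5.53 ± 0.26 from HSCs). Pdlim3, an alpha-actinin binding protein of muscle, was higher in PMSCs than in HSCs (8.12 ± 0.46) and fell by 5.46 ± 0.36 by 3 days. Of 13 other actins and myosin chains 7 rose and 3 fell from PMSCs to PMSC-MFs-3d, and 9 rose and 3 fell from HSCs to HSC-MFs-7d; Actb rose in both (2.65 ± 0.10 and 1.37 ± 0.09).

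Genes that mark vascular smooth muscle cells and pericytes changed in both directions in culture. Of the 18 in the list 16 were tested; 2 rose and 12 fell from PMSCs to PMSC-MFs-3d, 5 rose and 9 fell from PMSCs to PMSC-MFs-7d, and 3 rose and 10 fell from HSCs to HSC-MFs-7d, while from PMSC-MFs-3d to PMSC-MFs-7d 9 rose and 3 fell, as given above. Their summed TPM was 486 to 811 in PMSCs, 62.0 to 75.8 in PMSC-MFs-3d, 221 to 313 in PMSC-MFs-7d, 3623 to 6004 in HSCs and 434 to 466 in HSC-MFs-7d. Pln and Higd1b were at 0 in HSCs and in every cultured library, and Map3k7cl was at 0 in HSCs. Rgs5, a pericyte marker that quiescent stellate cells share, was at 59.0 ± 17 CPM in PMSCs, 4588 ± 775 CPM in HSCs and 143 ± 20 CPM in HSC-MFs-7d, and Abcc9 was at 1464 ± 312 CPM in PMSCs and 7.07 ± 3.1 CPM at 3 days. The part of these cell types in the members' values was not tested.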

How the data were processed

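The authors deposited 1 RSEM gene table for each of the 20 libraries, made with a stranded mRNA kit per the labels' protocols. The submitters' processing notes name FastQC, Trimmomatic, STAR 2.5.3a, RSEM 1.2.28 and mm10; no source used here gives the strand setting of the counting, so overlapping genes are uncertain. The authors' expected counts, of which 0.64% to 0.873% per library carried a fraction, were rounded. TPM and FPKM are the authors' values, per the file headers.

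Genes passing edgeR's filterByExpr (14751 of 24848; 10097 left out) were fitted over all 5 groups with TMM scaling and edgeR 4.0.16's quasi-likelihood test (R 4.3.3), Benjamini-Hochberg adjusted over all genes, threshold 0.05. SEs are the log2 fold change over the root of F. TMM factors were 0.739 to 0.811 in PMSCs and 0.964 to 1.13 elsewhere. Alternatives used DESeq2 1.42.0 and limma 3.58.1 on log2(TPM + 1). Fits were also run on simulated data with 200 changed genes. These are far fewer than were called in any comparison here, so scaling under wide change was not tested.

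The members and lists were chosen with earlier results of these data known. Library values are printed for up to 5 specific and 5 widely expressed called members per comparison. These were taken by size of change where the mean of the higher group reached 10 CPM. Values are also printed for Acta2, Tagln, Myh11, Des, Myocd, Srf and Vim. Actg2 and Cnn1 were below that level in PMSCs vs HSCs, and their values are printed there as well. Other members are given more briefly. Of the pathway and marker lists up to 4 called genes per comparison are named. Some pathway genes and the counts of 1 pathway list are not reported here.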

Additional observations from a re-analysis of the deposited data

Results flagged for a closer look

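In 9 of 174 sets of 4 libraries the highest or lowest library of a member stood apart by Dixon's criterion (the gap to the nearest library over the range, 95% critical value), which chance alone gives in about 1 of 20 sets. Myocd was at 10.6 CPM in PMSC library 4 and at 3.26 to 3.79 CPM in the others. Cald1, which holds myosin off the actin filament, was at 632 CPM in PMSC library 4 (others 543 to 558) and at 2131 CPM in PMSC-MFs-7d library 1 (others 2330.4 to 2362). Sorbs2 was at 42.8 CPM in PMSC-MFs-7d library 2 (others 28.8 to 30.4), and Actn4 at 1337 CPM in PMSC-MFs-3d library 2 (others 1226 to 1237). In HSC-MFs-7d, Cnn3 was at 507 CPM in library 4 (others 474 to 478), Tagln2 at 686 CPM in library 1 (others 548 to 557) and Myl6 at 552 CPM in library 3 (others 590.1 to 596). Pdlim5 was at 389.6 CPM in HSC library 3 (others 308 to 317).

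For 27 members the change in culture differed between the origins by edgeR's test of the difference (PMSC change minus HSC change, log2). Among the specific members it was -3.57 for Acta2, -3.76 for Actg2, -4.70 for Cnn1, -1.35 for Tagln, -3.72 for Lmod1, 0.66 for Smtn, -2.61 for Des and at most -3.98 for Myocd. Among the enriched members it was -0.92 for Myl9, -1.41 for Tpm1, 0.28 for Cald1 and -1.05 for Csrp1.

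For nonmuscle isoforms of the same families it was 0.96 for Actn4, 0.79 for Cnn2, 0.63 for Cnn3, -1.51 for Tagln2, 1.81 for Myh9, -1.39 for Myh10, -0.47 for Tpm3 and 0.48 for Tpm4. For adhesion proteins it was 0.49 for Vcl, 0.53 for Flna, 0.67 for Pdlim5 and -2.19 for Pdlim7. It was -2.66 for Vim, 0.77 for Nes and -1.40 for Srf.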

How the results depend on the processing

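Each of 245 member fold changes was recomputed under 27 alternatives, giving 6614 values. Of these, 6412 stayed on the same side of the threshold, 113 lost the call and 66 gained it. The 6412 take in changes of sign without a call in either fit, as for Vcl in PMSCs vs HSCs (-0.067, at most 0.021). The other 23 values changed sign with a call in the main fit or the alternative. All 23 came with library totals alone or with limma on log2(TPM + 1). The fit of compared groups alone gave no value for 1 member in 1 comparison. Among these 23, the sign changed in PMSCs vs HSCs for Tpm3 (-0.064 with totals, -0.11 with limma), Tpm4 (-0.28, -0.32) and Flna (-0.32, -0.37). In PMSC-MFs-3d vs PMSCs it changed for Csrp1 (0.36, 0.23), Vim (0.48, 0.35) and Srf (0.39, 0.27). In PMSC-MFs-7d vs PMSCs it changed for Mylk (0.45, 0.49), Tagln2 (0.016, 0.0088), Tpm3 (0.44, 0.46), Pdlim7 (0.28, 0.27) and Vim (0.26, 0.28), and for Myh10 with totals (0.37). Totals alone moved the median of all genes from -0.10 to -0.44 (PMSCs vs HSCs), -0.07 to 0.41 (3 days) and -0.002 to 0.43 (7 days vs PMSCs), and that of the difference of culture changes from 0.10 to 0.44. Beside TMM, PMSC libraries have the lowest scaling factors of the 5 groups; the cause was not tested.

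The number of members lower from PMSCs to PMSC-MFs-3d was 6, and 3 with totals. From PMSC-MFs-3d to PMSC-MFs-7d it was 6, 3 with limma, and 3 to 7 without each library in turn. From PMSCs to PMSC-MFs-7d it was 5, and 2 with totals and with limma. For the difference of culture changes limma called 7226 genes positive against 4633. The other counts stayed within 1.5 times. Counting the 7 enriched members with the specific ones gave 17 genes, listed here with the shares of all genes in brackets. In PMSCs vs HSCs 11 were higher and 4 lower (33.6%, 40.1%). At 3 days these counts were 10 and 5 (37.2%, 41.1%), and from 3 to 7 days 12 and 1 (18.6%, 17.4%). From PMSCs to PMSC-MFs-7d they were 12 and 3 (38.1%, 39.0%), and in HSC culture 13 and 3 (36.0%, 38.5%). In PMSC-MFs-7d vs HSC-MFs-7d they were 7 and 5 (23.9%, 23.1%), against 6 and 1 for the specific members alone. For the difference of culture changes 2 were positive and 10 negative (31.4%, 29.2%).

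Replicate numbers were not taken to pair the libraries, since no pair of groups correlated above 0.1 for all 4 numbers. PMSC-MFs-3d and PMSC-MFs-7d came nearest, at 0.17, 0.18, 0.06 and 0.20, with all 4 libraries correlating best with their own number, a hint from the data and not the design. With the replicate block the members higher and lower were 19 and 10, 24 and 6, 17 and 6, 24 and 4, 30 and 3, 16 and 7, and 11 and 16, in the order of the comparisons above. With the block edgeR no longer called Myocd from 3 to 7 days (1.19, adjusted p = 0.058) or from PMSCs to 7 days (-0.91, adjusted p = 0.077), and called Cald1 lower in PMSC-MFs-7d than in HSC-MFs-7d (-0.18, adjusted p = 0.049).

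Actg2, Cnn1 and Myocd had few counts in HSCs, at 8, 9 and 0, where the size of a fold is uncertain. Of the libraries, PMSC library 3 was lowest of its group for 20 members and PMSC library 4 highest for 19. PMSC-MFs-3d library 2 was highest for 23, and PMSC-MFs-7d library 1 was lowest for 25. HSC-MFs-7d library 3 was lowest for 23 and HSC-MFs-7d library 4 highest for 19.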

Other observations

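Of 16 vascular smooth muscle and pericyte markers tested, 6 were higher and 7 lower in PMSC-MFs-7d than in HSC-MFs-7d (median log2 fold change 0.45), beside 23.9% and 23.1% of all genes, groups for which time and origin cannot be told apart with certainty. In that list Cspg4, the proteoglycan NG2 of mural cells, was at 258 ± 73 CPM in PMSC-MFs-7d and 2.25 ± 3.4 CPM in HSC-MFs-7d (log2 fold change 6.80 ± 0.70). Kcnmb1, a subunit of the calcium-activated potassium channel of smooth muscle, was at 9.94 ± 4.3 CPM against 58.0 ± 7.4 CPM (-2.55 ± 0.37). From another list, Ppp1r14a, an inhibitor of myosin phosphatase, was at 8.98 ± 3.4 CPM against 39.1 ± 3.5 CPM (-2.12 ± 0.21). These 3 genes were chosen after their values were seen.

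Markers of striated muscle, which shares several contractile genes, summed to 87.1 to 156 TPM in PMSCs, 30.9 to 43.4 in PMSC-MFs-3d, 71.2 to 92.5 in PMSC-MFs-7d, 1.04 to 4.68 in HSCs and 112 to 186 in HSC-MFs-7d, with Myh4 at 0 in every library.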
